A study of Mus musculus with 7 samples.

Results

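The 10 genes described here encode antiviral effectors that interferon induces: the oligoadenylate synthetases Oas1a, Oas2 and Oas3 and the related Oasl2, the tetratricopeptide proteins Ifit1, Ifit2 and Ifit3, the radical SAM enzyme viperin (Rsad2), the ubiquitin-like modifier Isg15, and Usp18, the protease that removes Isg15 from its targets. Their open chromatin was read from lists of ATAC-seq peaks, an assay in which the Tn5 transposase cuts accessible DNA. A peak was taken as theirs when its summit lay in the body of a member gene, or when a member was the nearest protein-coding gene within 50 kb. This gave 31 of 103809 merged regions and 148 of 531679 peaks, at 9 of the 10 genes. The genes were chosen by their known function and by the presence and rank of their peaks in Allo and Syn in these same lists, so both are given as a description, with no test between the groups.

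The sorted cells were Lgr5+ intestinal stem cells of the crypt base from B6-GFP-Lgr5 mice, females of 8 to 12 weeks, 7 days after bone marrow transplantation. Allo recipients (4 libraries) were given BALB/c marrow, and Syn recipients (3 libraries) were syngeneic controls. Every recipient of either kind had been lethally irradiated and carried the Lgr5 reporter, so no library shows unirradiated stem cells. Each library came from 50000 cells sorted on the reporter from a separate pool of 3 to 4 mice, and a value is therefore that of a pool and not of an animal. More cells with an open site and a more open site in each cell cannot be told apart in such bulk libraries.

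Interferons bind receptors that activate JAK kinases. Type I and III interferons then act through the interferon-stimulated response element (ISRE) in front of genes such as these, and interferon gamma acts mainly through the gamma-activated site (GAS). OAS enzymes sense double-stranded RNA and make the second messenger that switches on RNase L. IFIT proteins bind viral RNA or translation factors, viperin makes a nucleotide that ends viral RNA chains, and Usp18 also blocks the type I interferon receptor and so limits the response. In the intestine the same program defends the epithelium against enteric viruses.

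The lists held 62977, 76091, 88861 and 81719 peaks in Allo 1 to 4 and 71925, 73668 and 76438 peaks in Syn 1 to 3. Depth in reads is unknown, since the lists carry no read totals. The lowest expected pileup of a list, a stand-in for depth, was 3.05 to 4.46 in Allo and 4.65 to 5.34 in Syn libraries, lower in each Allo library, and the peaks of Allo 3 and 4 follow another naming scheme than those of the other 5 libraries. Both MACS2 and MACS3 are named for the series and which library each was used on is not known, so ranks and presence may differ with the caller, which was not tested. In all 7 libraries a peak lay within 1 kb of an end of each of the 5 markers of the sorted cells (Lgr5, Olfm4, Ascl2, Smoc2 and Rgmb). Of the pan-leukocyte markers, Ptprc (CD45), Cd53 and Laptm5 had no such peak in any library, while Coro1a and Lcp1 had one in all 7.

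The promoters are shown first, as the place where an ISRE or a GAS was looked for. RefSeq windows (GRCm38.p6, the build named mm10), from 250 bases before to 50 after a start, were found for 8 of the 10 members. For Oas2 and Usp18 no window was found, so no ISRE or GAS was looked for at their starts. The windows of the 8 genes were searched on both strands for the ISRE core GAAANNGAAA and for the GAS TTCNNNGAA, and overlapping matches were counted separately. A match to the ISRE core was present in 6 of the 9 windows of these 8 genes, each of a different gene, against 3.46% of 32619 such windows. A match to the GAS was present in 2 of the 9, at Oas1a and Ifit2, against 8.34% of the windows. A match says only that these letters are there.

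The 6 windows with an ISRE core are printed 5′ to 3′ on the strand of the gene, with the ISRE core in capitals. They are Oas1a (chr5:120907476-120907775, minus strand), Oas3 (chr5:120777610-120777909, minus), Ifit1 (chr19:34640639-34640938, plus), Ifit3 (chr19:34583279-34583578, plus), Rsad2 (chr12:26456403-26456702, minus) and Isg15 (chr4:156200769-156201068, minus).
Oas1a: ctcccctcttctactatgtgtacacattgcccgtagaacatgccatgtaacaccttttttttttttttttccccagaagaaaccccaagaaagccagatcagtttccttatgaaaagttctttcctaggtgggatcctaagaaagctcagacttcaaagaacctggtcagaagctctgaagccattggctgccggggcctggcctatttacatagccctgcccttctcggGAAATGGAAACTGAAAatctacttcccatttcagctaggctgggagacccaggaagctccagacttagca
Oas3: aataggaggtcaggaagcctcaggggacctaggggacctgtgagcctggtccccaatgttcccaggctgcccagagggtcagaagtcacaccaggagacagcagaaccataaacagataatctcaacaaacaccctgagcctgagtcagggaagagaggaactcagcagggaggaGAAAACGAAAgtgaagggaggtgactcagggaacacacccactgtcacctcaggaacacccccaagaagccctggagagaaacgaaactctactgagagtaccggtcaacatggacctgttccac
Ifit1: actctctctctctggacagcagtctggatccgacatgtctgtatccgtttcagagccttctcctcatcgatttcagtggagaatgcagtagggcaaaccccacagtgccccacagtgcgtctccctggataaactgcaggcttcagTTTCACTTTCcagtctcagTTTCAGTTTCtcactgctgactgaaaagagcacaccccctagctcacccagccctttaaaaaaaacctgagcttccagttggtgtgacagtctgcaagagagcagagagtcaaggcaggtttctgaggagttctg
Ifit3: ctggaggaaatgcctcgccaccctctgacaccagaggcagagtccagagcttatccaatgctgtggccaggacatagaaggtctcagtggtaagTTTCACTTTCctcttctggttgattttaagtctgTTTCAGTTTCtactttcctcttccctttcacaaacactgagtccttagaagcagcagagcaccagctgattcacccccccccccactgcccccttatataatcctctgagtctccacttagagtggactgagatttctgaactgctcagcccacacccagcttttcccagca
Rsad2: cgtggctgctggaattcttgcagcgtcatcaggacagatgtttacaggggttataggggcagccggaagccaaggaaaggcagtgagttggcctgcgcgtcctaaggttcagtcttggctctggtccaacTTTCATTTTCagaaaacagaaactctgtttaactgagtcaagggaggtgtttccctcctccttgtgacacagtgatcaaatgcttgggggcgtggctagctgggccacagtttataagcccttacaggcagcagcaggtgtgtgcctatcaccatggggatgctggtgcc
Isg15: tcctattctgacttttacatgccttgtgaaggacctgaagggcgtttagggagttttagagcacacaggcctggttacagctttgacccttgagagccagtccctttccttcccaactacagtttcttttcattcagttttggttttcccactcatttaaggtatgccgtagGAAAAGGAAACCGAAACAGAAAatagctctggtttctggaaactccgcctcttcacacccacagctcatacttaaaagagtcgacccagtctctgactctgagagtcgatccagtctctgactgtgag

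Isg15 held 3 overlapping cores that began 78, 72 and 66 bases upstream of its start. Those of Oas1a began 20 and 14 bases upstream and also overlapped each other, and those of Ifit1 and Ifit3 began 104 and 85 and 156 and 122 bases upstream. Oas3 and Rsad2 had 1 match each, 75 and 120 bases upstream. Each of these matches lay under a peak in all 7 libraries except those of Isg15. The best summit of each of the 7 libraries was 12 to 32 bp from the middle of the core nearer the 5′ end of the window at Oas1a, 16 to 52 bp from that at Oas3, 14 to 40 bp from the one nearer the 5′ end at Ifit1, and 106 to 128 bp from that at Rsad2. At Ifit3 the summits lay 26 to 142 bp from the core nearer the 5′ end. At Isg15, which holds the most matches, a peak was called over the start in 2 of 7 libraries, Allo 1 and Allo 3. Among all windows of protein-coding genes, 54.5% of 21045 had a peak over the start in all 7 libraries and 38.5% in none.

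**Figure D1:**
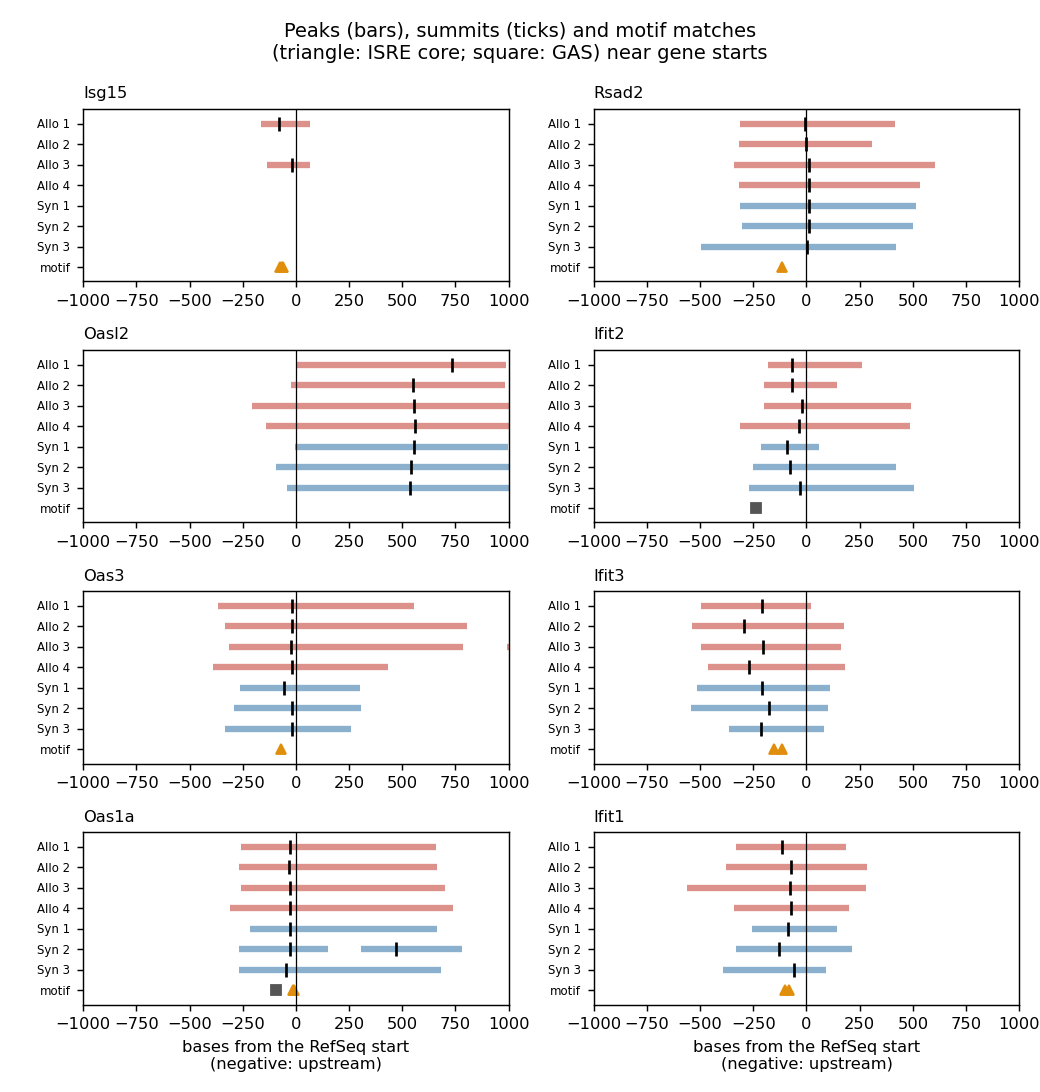
Peaks (bars), summits (ticks) and motif matches (triangles for the ISRE core, squares for the GAS) by distance in bases from the first listed RefSeq start of 8 member genes, with Allo libraries in red above Syn libraries in blue. Peaks covered the start of Oas1a, Oas3, Rsad2, Ifit2, Ifit3 and Ifit1 in all 7 libraries, that of Oasl2 in 6 and that of Isg15 in 2, both Allo.

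Across the members, Allo lists held more peaks at these genes. They numbered 21, 22, 28 and 24 in Allo 1 to 4, against 17, 19 and 17 in Syn 1 to 3. As a share of each list this was 3.34, 2.89, 3.15 and 2.94 per 10000 peaks in Allo and 2.36, 2.58 and 2.22 per 10000 in Syn, so the groups did not overlap. How many other gene sets of the series stand apart in this way is not given here. Markers of the sorted cells, taken in the same way, differed in the other direction, also without overlap. Their means were 5.50 ± 0.20 per 10000 in Allo (SD, n = 4), against 6.13 ± 0.21 in Syn (SD, n = 3). For the antiviral members the means were 3.08 ± 0.21 per 10000 in Allo (SD, n = 4), against 2.39 ± 0.18 per 10000 in Syn (SD, n = 3), a ratio of 1.29. By gene, Oas2 and Isg15 had peaks only in Allo libraries, and Usp18 had 5 peaks in each Allo and 4 in each Syn library. Oas3 had 2, 2, 3 and 2 peaks in Allo, against 2, 1 and 1 in Syn. Oasl2 had 1, 1, 4 and 2 in Allo, against 1 in each Syn library, and Rsad2 had 3, 4, 5 and 5 in Allo, against 3, 3 and 4 in Syn. Ifit2 had 6, 6, 6 and 5 peaks in Allo, against 5, 6 and 5 in Syn. By count of peaks, Oas1a and Ifit3 went the other way, each with 1 peak in every Allo library, against 1, 2 and 1 in Syn. At Oas1a the 2 peaks of Syn 2 lay in the same merged region, so no further region was open there. A merged region with 2 peaks in a library also adds to the counts of Oas2 in Allo 4 and of Ifit2 in Allo 1 and Allo 3. Ifit1 had no peak by the rule in any library.

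By region, 14 of the 31 were open in all 7 libraries and 11 in 1 or more Allo and no Syn library. Another 2 were open in a Syn and in no Allo library, each in Syn 2 alone. Of the 31, 17 had their best summit in a gene body and 14 outside one, and their median width was 517 bp, against 524 bp over all regions. Of the member regions 35.5% thus had peaks in Allo alone and 6.45% in Syn alone, against 21.0% and 6.63% of all merged regions, with 4 Allo lists set beside 3 Syn lists. Of the 11, 3 were seen in 1 Allo library, 5 in 2 and 1 in 3 of them. The other 2, at Oas2 and in Ifit2, were open in all 4 Allo and no Syn library, as were 1.14% of all regions. No member region was open in all 3 Syn and no Allo library, a pattern shown by 1.01% of all regions. Without Allo 2 there was 1 such Syn region, 9552 bp before Ifit2. With only peaks of −log10 q of at least 5, there were 2 such Syn regions, and 2 regions open in all Allo and no Syn library. Without both Allo 1 and Allo 2 the regions open in the remaining Allo libraries alone numbered 6. Fewer libraries have to agree when some are left out, and the share of all regions was not computed for these settings.

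**Figure D2:**
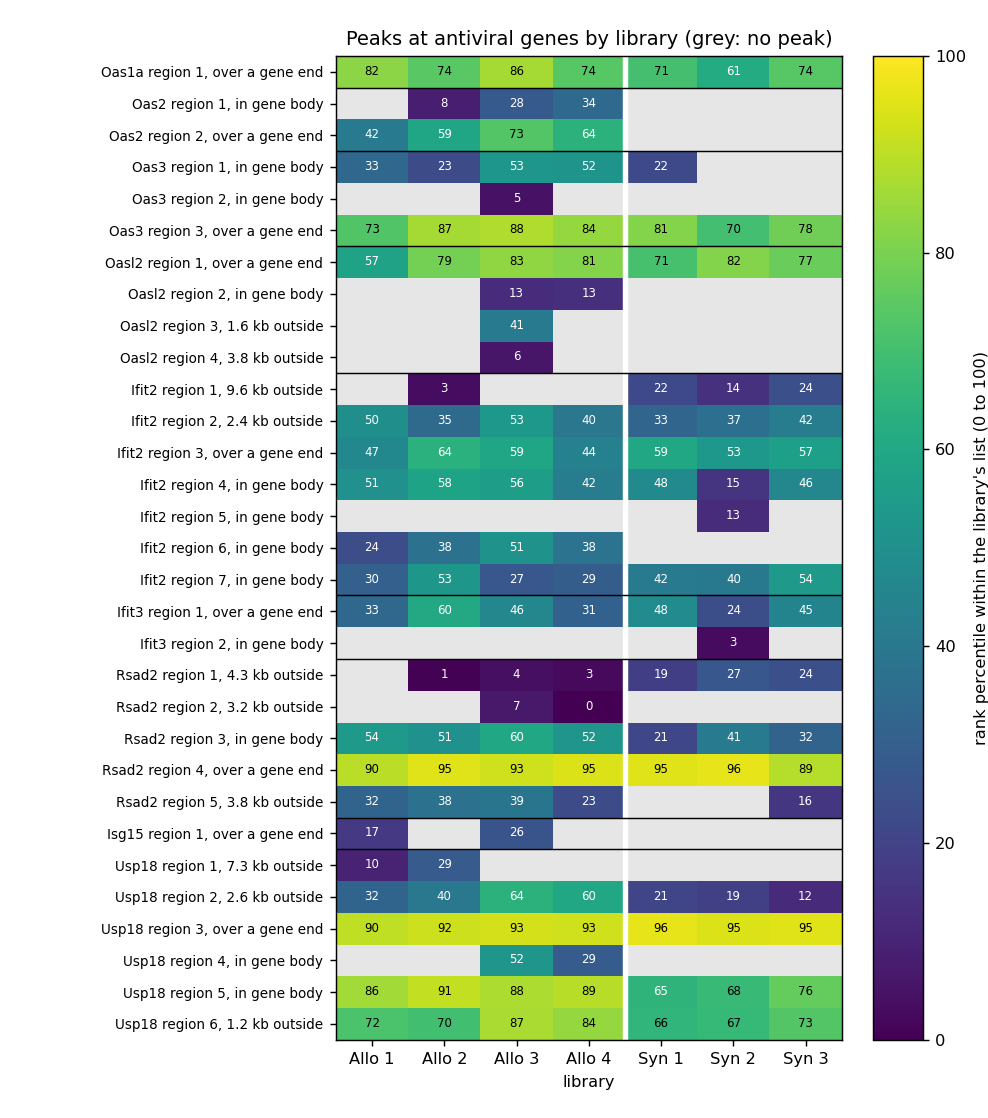
Rank percentile (0 to 100) of the best peak in each of the 31 member regions (rows, numbered by coordinate within a gene) and 7 libraries (columns, Allo left of Syn), with grey where no peak was called. The end of Oas2 and 1 region inside Ifit2 are filled in the 4 Allo columns and empty in the 3 Syn columns.

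A peak is placed below by its rank percentile, its position by −log10 q among the peaks of its own list, where 100 is the strongest. Among the 14 regions open in all 7 libraries, 3 had every Allo rank above every Syn rank (21.4%), against 8.06% of all 50324 such regions, and 1 had every Allo rank below every Syn rank (7.14%), against 6.58%. The median difference of the group means was 6.89 percentile points over the 14 and 0.44 over all 50324. The difference was above 0 for 9 of the 14 and for 54.1% of all. Of 31 such regions of the sorted-cell markers, 6 had every Allo rank above (19.4%) and 4 every Allo rank below (12.9%). For the antiviral members the count of 3 was 5 without Allo 4 and also 5 without Syn 3, and it was 1 when peaks were ranked by fold. The count of 1 was 2 without Allo 1 and 2 without Allo 2. Fewer ranks have to stand apart when a library is left out, and the share of all regions was not computed for these settings.

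Of the OAS genes, which lie close together on chromosome 5 apart from Oasl2, Oas2 alone had a region open in all Allo and no Syn library. The paralog Oas1e, not a member and singled out after its values were seen, had 1 peak in each Allo and 0 in each Syn library. Those peaks were spread over 2 regions. The region over the higher end of Oas2 (chromosome 5, 120749378 to 120750326, with the gene from 120730333 to 120749886) ranked at 41.7, 58.7, 73.3 and 64.5 in Allo 1 to 4, and no Syn library had a peak there. The fragments piled up at its summits numbered 30, 38, 54 and 39, against 3.74 to 5.20 expected from the local background. Summits of the 4 libraries lay within 69 bp of each other. The lowest pileup listed anywhere was 13 or 14 in the Syn libraries, so weaker signals there are not seen in these lists.

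Further inside Oas2 (120742178 to 120742465) a weaker peak was present in Allo 2, 3 and 4, at ranks of 8.48, 28.2 and 34.3, and in no Syn library. The neighbour Oas3 had an intragenic region (120761711 to 120762220) in all 4 Allo libraries at 33.3, 22.9, 52.5 and 51.9 and in Syn 1 alone at 22.0. In both regions Allo 3 and Allo 4 ranked highest. A last region inside Oas3 was seen in Allo 3 only, at 5.03.

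The starts of Oas1a and Oas3, by contrast, were open in every library. The Oas1a start region (120906744 to 120907833) ranked at 82.5, 74.2, 86.5 and 74.0 in Allo and 70.6, 61.5 and 74.1 in Syn. The Oas3 start region (120776856 to 120778048) ranked at 73.0, 86.6, 88.0 and 84.2 in Allo and 81.3, 69.9 and 78.2 in Syn. In each the groups overlapped, through a single pair of libraries at Oas1a, where Allo 4 lay just under Syn 3. Group means were 79.3 ± 6.2 in Allo (SD, n = 4), against 68.8 ± 6.54 in Syn (SD, n = 3) at Oas1a, and 83.0 ± 6.80 in Allo (SD, n = 4), against 76.5 ± 5.87 in Syn (SD, n = 3) at Oas3. The difference at Oas1a was 10.5, or 6.90 without Syn 2 and 3.70 ranked by fold. That at Oas3 was 6.48, or 3.21 without Syn 2 and 9.79 without Allo 1, and ranked by fold it was the other way, at -5.37.

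Oasl2, an OAS-like gene whose protein ends in ubiquitin-like domains, had its main region over the lower end of the gene (chromosome 5, 114896728 to 114898006). It ranked at 57.5, 79.2, 83.3 and 81.4 in Allo and 70.8, 81.6 and 77.2 in Syn. Allo 1 was the lowest of the 7 libraries and Allo 3 the highest, and the difference of means was -1.16 percentile points, or 4.80 without Allo 1. Its summits lay 535 to 734 bases downstream of the RefSeq start rather than at it. Of 3 weaker regions in or beyond Oasl2, 2 were seen in Allo 3 alone, at 41.2 and 5.88, and 1 in Allo 3 and Allo 4, at 12.8 and 13.5.

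**Figure D3:**
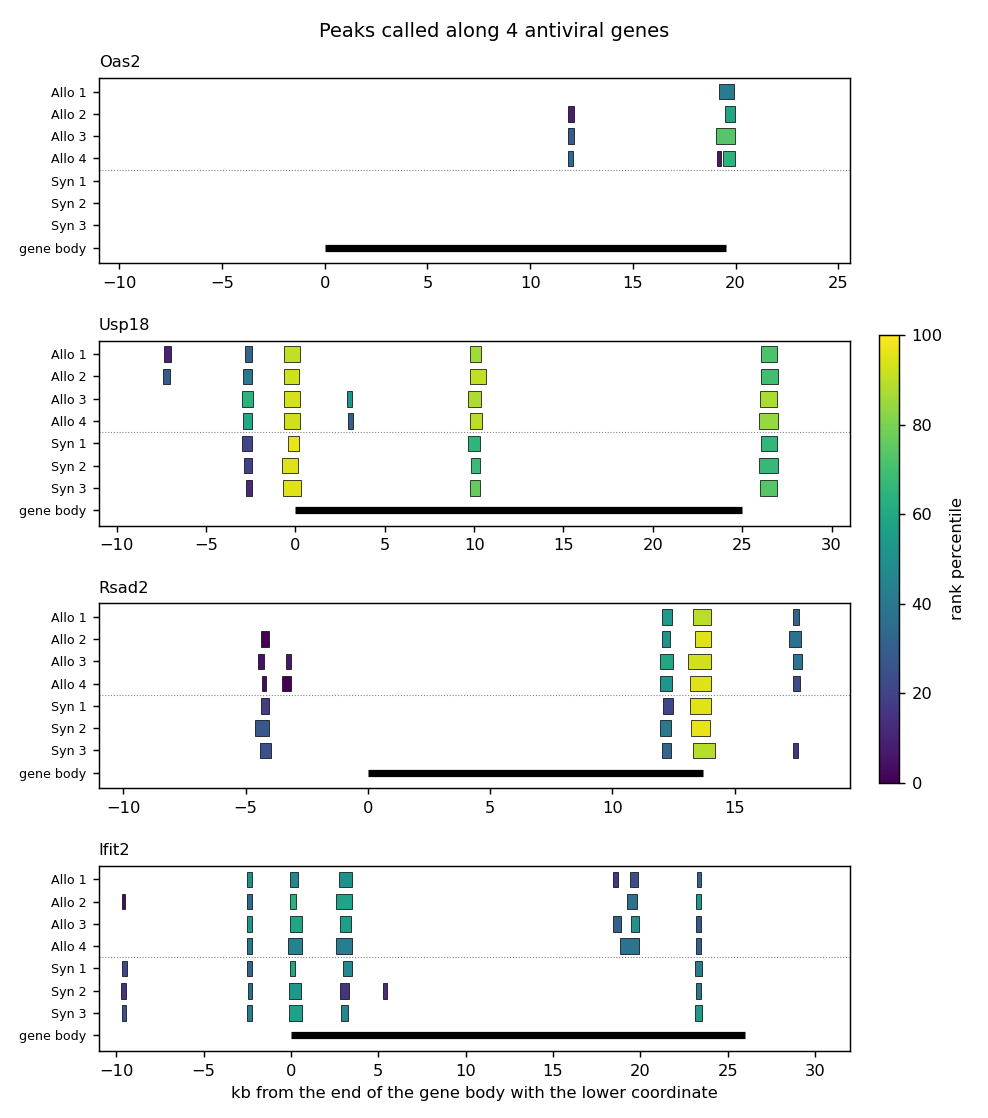
Peaks called along Oas2, Usp18, Rsad2 and Ifit2 (boxes, coloured by rank percentile) in the 4 Allo libraries above the 3 Syn libraries, by distance in kb from the end of the gene body with the lower coordinate. The Syn rows are empty at Oas2, and inside Usp18 about 10 kb from that end the Allo boxes rank at 86.1 to 90.7 and the Syn boxes at 64.9 to 76.3.

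The IFIT genes lie side by side on chromosome 19. Ifit1 had no region by the rule, because the open region at its start (34640327 to 34641172) had its best summit within the bodies of Ifit1bl1 and Ifit1bl2, genes of the same family. On the map Ifit1bl1 spans that start and Ifit1bl2 ends just before it. The region itself was open in all 7 libraries. It ranked at 70.2, 83.8, 82.7 and 80.9 in Allo and at 66.1, 68.5 and 68.2 in Syn, with every Allo library above every Syn library. The means were 79.4 ± 6.21 in Allo (SD, n = 4), against 67.6 ± 1.29 in Syn (SD, n = 3), and its pileups were 53, 76, 73 and 64 in Allo and 48, 57 and 54 in Syn. A weaker region past the other end of Ifit1 was open in Allo 2 at 48.2 and in Allo 3 at 21.4. The start region is not among the 31 regions or their counts, and it was singled out after its values were seen.

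Ifit2 had 7 regions, the most of any member. A region inside the gene (34568975 to 34570463), 6248 bp from its higher end, was open in all 4 Allo libraries at 23.7, 37.6, 51.2 and 38.0, and in no Syn library. It was 1489 bp wide, with 2 peaks each in Allo 1 and Allo 3, and its best summits had pileups of 24, 30, 38 and 27 against 4.32 to 5.68 expected. The start region (34550380 to 34551201) was open in all libraries at 46.8, 63.9, 58.8 and 44.1 in Allo and 59.4, 53.5 and 56.6 in Syn, so that the Syn ranks lay within the Allo range.
Ranks at 3 further Ifit2 regions open in all libraries overlapped between the groups. The region 2382 bp before the gene had means of 44.4 ± 8.64 in Allo (SD, n = 4), against 37.1 ± 4.73 in Syn (SD, n = 3), a difference of 7.29, or 4.35 without Allo 3. The region 3166 bp inside the start averaged 51.6 ± 7.02 in Allo (SD, n = 4), against 36.5 ± 18.3 in Syn (SD, n = 3), where Syn 2 stood low at 15.4 and left a difference of 4.50 when it was left out. Nearer the far end (34573694 to 34574098) the order was the reverse, at 35.0 ± 12.1 in Allo (SD, n = 4), against 45.4 ± 7.58 in Syn (SD, n = 3). That difference of -10.4 was -16.4 without Allo 2, when every Allo rank lay below every Syn rank, and -5.99 without Syn 3. A region 9552 bp before the gene, the one furthest from its member, was also lower in Allo: it was open in all 3 Syn libraries at 22.0, 14.1 and 24.3 and in Allo 2 alone at 3.18. A last one, inside the gene, was seen in Syn 2 at 12.5.

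At Ifit3 the start region (34582985 to 34583712), which holds both ISRE cores, ranked at 33.3, 60.5, 46.5 and 31.1 in Allo and at 48.2, 23.9 and 45.0 in Syn. Allo 2 was the highest of the 7 libraries and Syn 2 the lowest, and the groups overlapped. A further region, inside Ifit3 near the other end, was seen in Syn 2 only, at 3.12.

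Rsad2, on chromosome 12, held the strongest region of the members beside Usp18, and its ranks overlapped between the groups. Its start region (26455850 to 26456949) ranked at 89.6, 95.2, 92.7 and 94.7 in Allo and 95.0, 96.1 and 88.8 in Syn, a difference of means of -0.21 that lay between -2.47 and 1.2 as each library in turn was left out. Ranked by fold it was -5.72. A region 1518 bp inside the gene (26454698 to 26455246) ranked at 53.6, 50.7, 59.7 and 52.3 in Allo and 21.2, 41.0 and 31.9 in Syn. There every Allo library stood above every Syn library, with means of 54.0 ± 3.92 in Allo (SD, n = 4), against 31.4 ± 9.93 in Syn (SD, n = 3). Its expected pileups were alike, 10.7 to 13.9 in Allo and 11.1 to 11.9 in Syn, while its summit pileups were 50, 51, 67 and 53 in Allo and 36, 47 and 42 in Syn.

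Outside Rsad2, a region 3849 bp upstream of the start was open in all 4 Allo libraries at 32.1, 37.6, 38.9 and 23.3 and in Syn 3 alone at 15.7. A region 4333 bp beyond the other end ranked lower in Allo, at 0.54, 4.19 and 2.62 in Allo 2, 3 and 4 with no peak in Allo 1, against 18.5, 27.0 and 24.3 in Syn. Beside it, 3212 bp beyond that end, a weak region was open in Allo 3 at 6.99 and in Allo 4 at 0.36 only. Regions of Rsad2 thus ranked higher, lower or alike in Allo by their place.

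Isg15, a single small gene on chromosome 4 (156199424 to 156200818), had 1 region, at its start (156200751 to 156200983). It was called in Allo 1 at a rank of 16.6 and in Allo 3 at 25.9, and in no other library. The summit pileups were 52 and 70, each above that of the Oas2 end in the same library, while the expected pileups were 21.1 and 29.2, so that the authors' fold over background was 2.40 and 2.35. No value is listed there for the other 5 libraries.

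Usp18, on chromosome 6, had 3 of the 4 regions whose groups stood apart in rank, in both directions. The region inside the gene (121255535 to 121256573), 10063 bp from its lower end, ranked at 86.1, 90.7, 87.7 and 89.3 in Allo and 64.9, 67.6 and 76.3 in Syn. The groups were apart, with means of 88.4 ± 2.00 in Allo (SD, n = 4), against 69.6 ± 5.95 in Syn (SD, n = 3). Summit pileups there were 77, 94, 89 and 86 in Allo and 44, 48 and 57 in Syn. Ranked by fold instead, the groups overlapped and the difference of means was 6.12, against 18.8 by −log10 q.

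A weaker region 2593 bp before the lower end of Usp18 (121242897 to 121243545) ranked at 32.2, 40.1, 64.3 and 59.8 in Allo and 21.0, 18.9 and 12.0 in Syn, again with no overlap. Its difference of means, 31.8 percentile points, was the largest among the 14 regions open in all libraries. Allo 3 and Allo 4 ranked above Allo 1 and Allo 2. The difference was 44.8 without Allo 1 and Allo 2, and 18.9 without Allo 3 and Allo 4. Ranked by fold, the groups overlapped and the difference was 13.9. With the lists all cut to the length of the shortest, the region had no peak left in Syn 3 and the difference was 31.9.

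The region over the lower end of Usp18 (121245155 to 121246194) ranked at 90.5, 92.4, 93.4 and 92.7 in Allo and at 96.3, 94.9 and 95.1 in Syn. It was the 1 region with every Allo library below every Syn library, with a difference of means of -3.22 percentile points, or -14.5 ranked by fold. The summit pileups overlapped, at 103, 113, 147 and 124 in Allo and 111, 112 and 114 in Syn. The expected pileups did not, at 11.8, 12.0, 16.7 and 13.3 in Allo and 8.94, 9.92 and 9.34 in Syn. A wide region 1237 bp beyond the other end ranked at 71.9, 69.8, 87.2 and 84.0 in Allo and at 66.0, 67.1 and 73.2 in Syn, with Allo 1 and Allo 2 under Syn 3. Another 2 regions of Usp18 were open in Allo libraries alone, 1 before the gene in Allo 1 at 9.71 and Allo 2 at 28.7, and 1 inside it in Allo 3 at 52.2 and Allo 4 at 29.0.

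**Figure D4:**
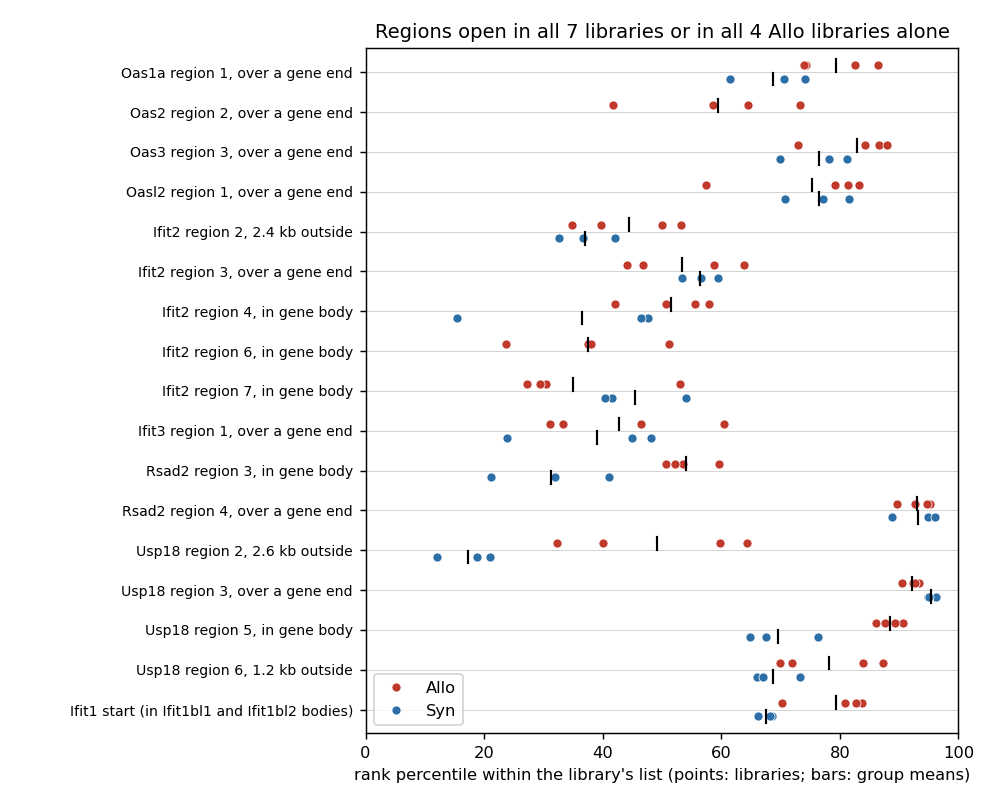
Rank percentile of each library (points, Allo red and above, Syn blue and below, with black bars for group means) in the 14 member regions open in all 7 libraries, the 2 regions open in the 4 Allo libraries alone, and the region at the Ifit1 start. Points of the groups are apart at Usp18 (regions 2, 3 and 5), Rsad2 (region 3) and the Ifit1 start.

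Summit positions varied little among libraries at most of these regions. The best summits of the 7 libraries spanned 20 bp at the Oas1a start, 22 bp at the Rsad2 start, 37 bp at the Oas3 start and 33 bp at the lower end of Usp18. The span was 566 bp in the region beyond Usp18 and 199 bp in the main region of Oasl2, and at most 116 bp in the other 12 regions open in all libraries.

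Other genes of the antiviral pathway were taken from a list of 41, of which 38 matched a protein-coding gene and 37 had a region. They include OAS and IFIT paralogs, the RNA sensors Ddx58 (RIG-I) and Ifih1 (MDA5) with their adaptor Mavs, and the Isg15 enzymes Uba7, Ube2l6 and Herc6. Of their 153 regions, none was open in all 4 Allo and no Syn library and none in all 3 Syn and no Allo library. Of 80 regions open in all libraries, 11 had every Allo rank above every Syn rank (13.8%, against 8.06% of all) and 2 had every Allo rank below (2.5%, against 6.58% of all). Peaks on the list numbered 15.7 ± 0.56 per 10000 in Allo (SD, n = 4), against 14.7 ± 0.31 in Syn (SD, n = 3). Here the groups overlapped, at 14.85 to 16.04 in Allo and 14.32 to 14.91 in Syn.

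The 11 regions, named here after their values were seen, lay at or nearest to 10 genes: the OAS paralogs Oas1f and Oas1g, the Ifit1 start within Ifit1bl1 and Ifit1bl2, Ube2l6, the conjugating enzyme of Isg15, Trim25, a ubiquitin ligase that activates RIG-I, Mavs, Ifi35, Sp100 and Parp14. Ube2l6 and Trim25 had 2 each. The region at the end of Oas1g ranked at 73.7, 78.3, 82.0 and 81.3 in Allo and at 54.0, 61.7 and 71.9 in Syn. At the end of Oas1f the ranks were 54.8, 42.7, 59.6 and 49.2 in Allo and 20.2, 28.1 and 19.7 in Syn. The 2 regions ranked lower in Allo were nearest to Apobec3 and Dtx3l.

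The sources used here do not give how reads that match several paralogs were placed. Oas1a with the other Oas1 genes, and the Ifit1 family, have close copies, so peaks at these genes may include reads of a neighbour, which was not tested.

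Marker lists of other cell types were set beside the members, since leukocytes also carry interferon-induced genes. Pan-leukocyte markers had 1.98 ± 0.27 peaks per 10000 in Allo (SD, n = 4), against 1.94 ± 0.03 in Syn (SD, n = 3), and 2 of the 5 genes had a peak at a gene end in each library. Markers of T and NK cells had 0.72 ± 0.28 in Allo (SD, n = 4), against 0.49 ± 0.07 in Syn (SD, n = 3), and numbered 2, 6, 7 and 8 peaks in Allo and 3, 4 and 4 in Syn. Of these 8 genes, Cd4 alone had a peak at a gene end, and it had one in all 7 libraries. By the rule, however, no peak was assigned to Cd4 in any library. Cd3d, Cd3e, Cd3g, Cd2, Cd8a, Nkg7 and Gzmb had no gene-end peak in any. Assigned peaks numbered 1, 3, 5 and 6 in Allo and 2, 3 and 3 in Syn at Cd2. At Gzmb they numbered 0, 2, 1 and 1 in Allo and 0 in each Syn library. Cd3e had 1 in every library, and Cd3d, Cd3g, Cd8a and Nkg7 had none. Markers of B cells had 1 to 3 peaks in Allo and 1 to 2 in Syn libraries, with 2 of 4 genes (Cd79a and Cd79b) having a gene-end peak in each. No peak was assigned to Cd79a by the rule. Myeloid markers had 1.74 ± 0.16 per 10000 in Allo (SD, n = 4), against 1.62 ± 0.05 in Syn (SD, n = 3), with 3 of 6 genes having a gene-end peak in each Allo library and 2 to 3 in the Syn libraries. Endothelial and stromal markers had 3.35 ± 0.44 in Allo (SD, n = 4), against 3.33 ± 0.06 in Syn (SD, n = 3), with 1 of 5 genes having a gene-end peak in each library. The part of other cells in the ranks at the antiviral genes was not tested.

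**Figure D5:**
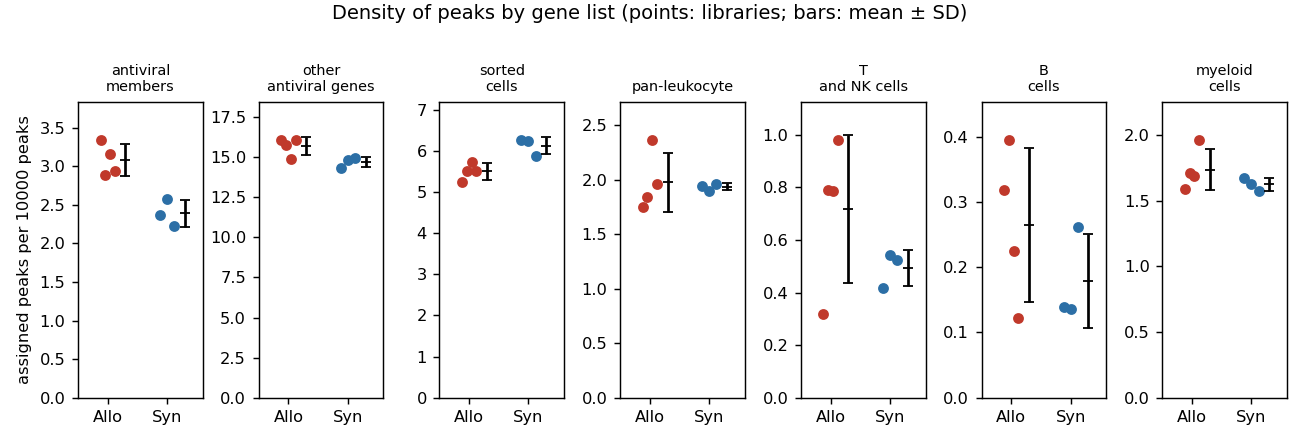
Assigned peaks per 10000 peaks of each library (points; black bars give mean ± SD) for the 10 antiviral members, the other antiviral genes and markers of sorted and immune cells, Allo left of Syn, each panel with its own axis from 0. The member densities are 2.89 to 3.34 in Allo and 2.22 to 2.58 in Syn, without overlap. Those of the sorted-cell markers do not overlap either, in the other direction, at 5.24 to 5.74 in Allo and 5.89 to 6.26 in Syn. Pan-leukocyte densities overlap.

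The distance limit of the rule did not bear on the members, since the furthest region lay 9552 bp away. Another 80 regions within 50 kb of a member belonged to other genes. Of these, 2 were open in all 4 Allo and no Syn library, both assigned to Tuba8 next to Usp18 (chromosome 6, 121218911 to 121219385 and 121232630 to 121233028), and 2 were open in all 3 Syn and no Allo library.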

How the data were processed

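The data are ATAC-seq peak lists of 7 libraries, 4 Allo and 3 Syn, with 1 list for each library. Per the submitters' processing notes, Trim Galore, Bowtie2, MACS2, MACS3 and the build mm10 were used, whereas the sources used here do not give their versions, their settings or which library each peak caller was used on. The deposited narrowPeak columns hold, for each peak, a display score, a fold over background (ratio), a −log10 p, a −log10 q and the summit position, all the authors' values. The lists had no column left out.

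Only chromosomes 1 to 19 and X were used. Regions were made by merging peaks of any library that shared 1 bp or more. A peak went to each gene whose body held its summit, and outside all bodies to the closest protein-coding gene, up to 50 kb away (RefSeq, mm10). Ranks are percentiles of −log10 q within a list. Summit and expected pileup were solved from the fold and the −log10 p, within 0.001 for 100% of peaks. They are not scaled to depth, so pileups serve as a description of each list. Read totals are not used here, so counting intervals are not given.

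The members, the marker lists and the list of 41 other antiviral genes were chosen with earlier results of these data known. On that list, Mx1, Mx2 and Oas1b did not match a gene name used here. The rule for naming other genes was a region open in every library of one group and none of the other, which no gene on the list met. No test was made between Allo and Syn at the members. 12 planned and 2 added alternatives were run, and the scripts were tested on simulated data. Python 3.11.15, numpy 2.4.6, pandas 2.3.3, scipy 1.17.1 and matplotlib 3.10.9 were used.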

Additional observations from a re-analysis of the deposited data

Results flagged for a closer look

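Among 19 sets of 4 Allo ranks, 2 held a library that stood far from the other 3 by Dixon's criterion, where chance gives about 1 in 20 sets. At the main region of Oasl2, Allo 1 was low, at a rank percentile of 57.5, with a gap of 0.842 of the range. In the Ifit2 region nearest to the far end of the gene, Allo 2 was high, at 53.1, with a gap of 0.872 of the range.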

How the results depend on the processing

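With only peaks of −log10 q of at least 5, regions open in all Syn and no Allo library numbered 2, as did those open in all Allo and no Syn library. The difference in member peaks was then 0.479 per 10000 peaks. With lists cut to 62977 peaks there was 1 such Syn region. With gene bodies only, Allo-only regions numbered 1, the difference was 0.387 per 10000 and no region had every Allo rank below. Ranked by fold, 1 region had every Allo rank above. Without Allo 1 and 2, chosen after seeing the data, the counts were 6 Allo-only, 1 Syn-only, 5 above and 3 below, and without Allo 3 and 4 there were 5 above. Leaving out each library in turn gave 2 to 3 Allo-only and 0 to 1 Syn-only regions, differences of 0.604 to 0.785 per 10000, 3 to 5 regions above and 1 to 2 below. With libraries left out a pattern is easier to meet, and the share of all regions was not computed under any of these settings. The cause was not tested. For single regions, 212 of 218 values counted as unchanged. A rank difference did so if it moved by less than the larger group SD. This held even where its sign changed, as at Oasl2 (-1.16, or 4.80 without Allo 1) and Ifit3 (3.78, or -3.78 without Syn 2). The Allo-only regions of Oas2 and Ifit2 were judged by presence instead, which neither leaving out a library nor ranking by fold could change. With gene bodies only, every region kept repeated its main value. The 212 thus include values that could not change. The other 6 values moved further, all when ranked by fold. They were at Oas1a (3.70), Oas3 (-5.37, the other direction), Rsad2 (-5.72) and 3 Usp18 regions (13.9, -14.5 and 6.12). No paired analysis was possible because the values come from no test, and Allo and Syn libraries are separate pools of mice that share only replicate numbers. A peak list gives no signal under its threshold, and depth per library is unknown.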
